A study of Mus musculus with 2 samples.

Results

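The genes described here are 10 regulators of germ cell fate: Dazl, Dmrt1, Stra8, Sohlh2, Nanos3, Dnd1, Prdm14, Prdm1, Tfap2c and Dppa3. They were picked by name, with their values in these libraries already known, and were found by matching Ensembl gene identifiers to mouse symbols, which located all 10 among the 25749 genes of the deposited tables. The study compared E14.1 cells, a mouse embryonic stem cell line, carrying T136A AHCY with E14.1 cells carrying WT AHCY. AHCY hydrolyses S-adenosylhomocysteine, the product that methyltransferases leave behind, and T136A stands for a threonine replaced by alanine. Each genotype had 1 library of messenger RNA, with implied totals of 18396840 reads for T136A and 17506154 reads for WT. The labels do not say how the T136A cells were derived, whether they are 1 clone, or how they were cultured. With 1 library a genotype there was no spread between replicates and no test, so "higher" and "lower" below compare this pair of libraries.

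Germ cells arise in the mouse embryo when a few cells of the epiblast receive BMP signals and switch on Prdm1, Prdm14 and Tfap2c, the transcription factors that specify primordial germ cells. Once these cells reach the gonad, they take up a later programme in which Dazl licenses sexual differentiation and retinoic acid induces Stra8 at the entry into meiosis. Embryonic stem cells transcribe several early germ cell genes, while many later ones are held down by DNA methylation and by a variant Polycomb complex that contains Mga, Max, E2f6 and Pcgf6.

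The 10 genes divided into a set that was higher in T136A and a set that was lower. On the log2 scale with 1 RPKM (a read count divided by the exon length and by the size of the library) added, 4 of the 10 were at least 2-fold higher in T136A, beside 3.13% of the 12320 genes that reached 1 RPKM in at least 1 library. Another 3 were at least 2-fold lower, beside 3.10% of all such genes, and the remaining 3 were within 2-fold. Because the genes were chosen with these values known, nothing is read from those shares. All 10 reached 1 RPKM in both libraries, so none entered through 1 library alone. The median log2 ratio of the 10 was -0.17 and that of all 12320 genes -0.03. The higher genes were Dazl, Stra8, Sohlh2 and Dnd1, and the lower genes were Dmrt1, Prdm1 and Tfap2c. Genes that act after specification stood on either side, since Dmrt1 was the lowest of the 10 and Nanos3 was within 2-fold.

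Promoter sequence was matched in RefSeq for 5 of the 10 genes, and the 250 bases before the annotated start are shown for those, in build GRCm38.p6, because the set includes the 3 genes with the highest ratios and 1 of the lower genes. Capitals mark matches on either strand to CCAAT, to AGGTCA (the core of retinoic acid receptor sites), to GGGCGG (the GC box) and to TGACG (the core of cyclic AMP response elements). CACGTG, the E-box read by Max and Mga, and GCGGGAA, an E2F site, were also searched and had no match in these windows.
Dazl (chr17:50293621-50293870, minus strand): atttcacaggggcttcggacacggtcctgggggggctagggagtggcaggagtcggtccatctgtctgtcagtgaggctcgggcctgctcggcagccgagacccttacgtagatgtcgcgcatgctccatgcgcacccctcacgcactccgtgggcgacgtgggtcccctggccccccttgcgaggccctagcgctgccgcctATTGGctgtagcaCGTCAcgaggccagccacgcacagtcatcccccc
Stra8 (chr6:34920698-34920947, plus strand): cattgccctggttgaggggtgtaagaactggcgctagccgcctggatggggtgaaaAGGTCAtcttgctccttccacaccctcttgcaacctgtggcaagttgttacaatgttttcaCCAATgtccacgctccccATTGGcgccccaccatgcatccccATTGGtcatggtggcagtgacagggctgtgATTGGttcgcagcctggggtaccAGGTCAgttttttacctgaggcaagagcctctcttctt
Sohlh2 (chr3:55181794-55182043, plus strand): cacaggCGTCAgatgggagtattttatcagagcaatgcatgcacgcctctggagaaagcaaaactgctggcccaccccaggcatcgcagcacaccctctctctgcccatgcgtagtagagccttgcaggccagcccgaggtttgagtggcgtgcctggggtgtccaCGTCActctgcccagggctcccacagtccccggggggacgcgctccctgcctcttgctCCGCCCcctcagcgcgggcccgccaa
Nanos3 (chr8:84176553-84176802, minus strand): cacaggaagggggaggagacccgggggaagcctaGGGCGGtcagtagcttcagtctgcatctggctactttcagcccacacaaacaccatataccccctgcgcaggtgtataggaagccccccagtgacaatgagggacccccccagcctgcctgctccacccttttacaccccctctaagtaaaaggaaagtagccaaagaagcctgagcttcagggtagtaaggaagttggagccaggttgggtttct
Prdm1 (chr10:44458749-44458998, minus strand): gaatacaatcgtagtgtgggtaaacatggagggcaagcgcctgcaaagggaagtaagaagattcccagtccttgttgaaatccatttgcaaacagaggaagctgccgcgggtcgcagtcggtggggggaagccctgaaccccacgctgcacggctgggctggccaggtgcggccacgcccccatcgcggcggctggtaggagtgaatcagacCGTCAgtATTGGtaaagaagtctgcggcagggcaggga

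The promoters differed in the number of CpG dinucleotides, the sites of DNA methylation. Dazl had 20 in its 250 bases, more than 82.1% of the 32851 mouse promoter windows in the table, with an observed to expected CpG ratio of 0.71. Sohlh2 had 14 and Prdm1 had 15, against a median of 6 over all windows. Stra8 had 5 and Nanos3 had 3. A high count was therefore found both in genes that were higher in T136A (Dazl, Sohlh2) and in 1 that was lower (Prdm1).

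The Stra8 window held AGGTCA at 2 places, starting 194 and 38 bases before the start site, and 14.02% of all windows held at least 1 copy. It also held CCAAT, in either orientation, 4 times, against 1 match each in Dazl and Prdm1, and 33.8% of all windows held this motif. TGACG, present in 17.8% of all windows, matched once in Dazl, once in Prdm1 and at 2 places in Sohlh2, and GGGCGG, present in 32.7%, matched once in Sohlh2 and once in Nanos3. These are letter matches and do not show binding. CACGTG occurred in 6.02% of all windows and GCGGGAA in 3.82%. The RefSeq starts used for Nanos3 and Prdm1 lie well inside the GENCODE gene spans, and that of Stra8 lies inside but near the edge. Other starts of these genes are therefore not covered.

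Dazl, an RNA-binding protein that controls translation in germ cells, stood furthest apart. It was at 33.3 RPKM in the T136A library and at 1.24 RPKM in the WT library. The T136A value was 26.8 times the WT value, with a 95% counting interval of 20.9 to 35.0, and rested on 1805 reads in T136A and 64 reads in WT. Such intervals are exact conditional binomial (Clopper-Pearson) intervals from whole reads recovered from the RPKM values. They cover counting error only, not variation between cultures. The log2 ratio of 3.94 ranked 3 from the top among 12320 genes. In T136A the Dazl transcript exceeded 84.8% of those genes, and in WT it exceeded 9.40%.

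Stra8, the transcription factor that meiotic entry depends on, was at 20.1 RPKM in T136A and at 3.96 RPKM in WT. The fold was 5.07 (4.18 to 6.19), from 666 and 125 reads in T136A and WT. Sohlh2, a basic helix-loop-helix factor of spermatogonia and early oocytes, was at 71.8 RPKM in T136A and at 24.4 RPKM in WT, a fold of 2.94 (2.74 to 3.16). It was already well transcribed in WT, above 79.2% of genes, and in T136A it was above 93.0%. Dazl, Stra8 and Sohlh2 had the highest ratios of the 10 genes, so their shared direction follows from that choice. Their WT levels differed, with Dazl at 1.24 RPKM, near the minimum of 1 RPKM, and Sohlh2 far above it.

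Dnd1, an RNA-binding protein that primordial germ cells need to survive, was at 18.4 RPKM in T136A and at 8.22 RPKM in WT. Its fold was 2.24 (1.98 to 2.55), with a log2 ratio of 1.08, so it was close to the 2-fold line, and 0.83 with 5 RPKM added. The 3′ end of Dnd1 overlaps exons of Wdr55, a gene on the opposite strand, by 140 bases, which is 5.80% of the Dnd1 exon length. Wdr55 was at 47.9 RPKM in T136A and at 24.2 RPKM in WT, 1.98-fold higher. Since no rule for strand is stated for the counting, reads in the shared stretch cannot be assigned to either gene, and the part of Wdr55 in the Dnd1 value was not tested.

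Nanos3, an RNA-binding protein that protects migrating primordial germ cells, was at 1.24 RPKM in T136A and at 1.48 RPKM in WT. Only 21 and 24 reads in T136A and WT support these values, and the interval of the fold, 0.44 to 1.56, included 1. A difference was not detectable at this depth.

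**Figure D1:**
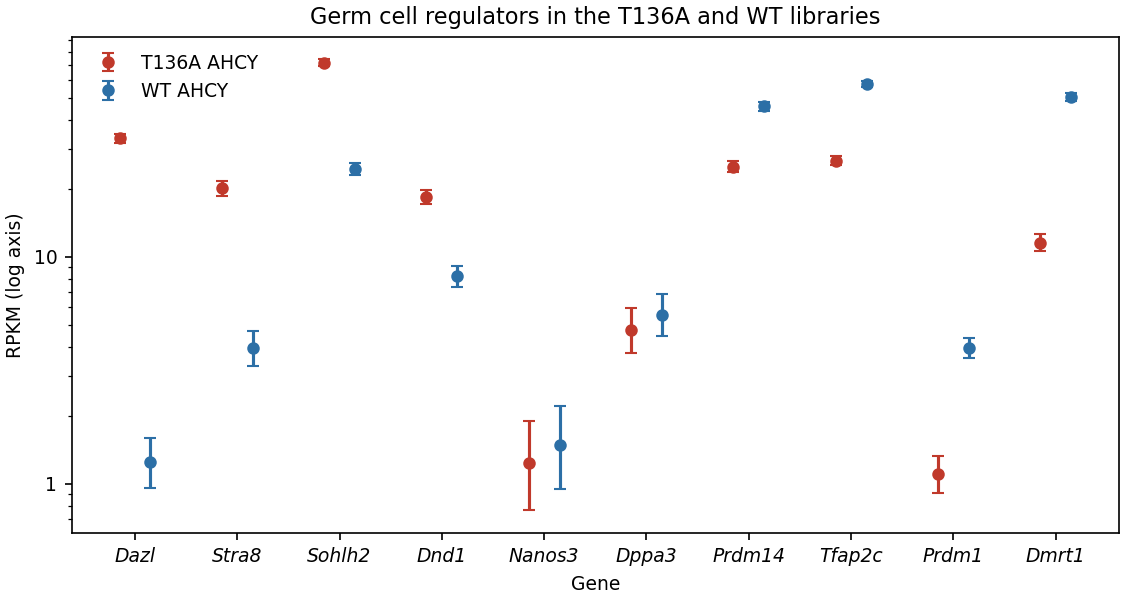
RPKM of the 10 germ cell regulators in the T136A library (red, left of each pair) and the WT library (blue, right), on a log axis, ordered by the ratio of the libraries. Bars are 95% Poisson counting intervals of single libraries. Dazl is at 33.3 RPKM in T136A and 1.24 RPKM in WT, and Dmrt1 is at 11.6 RPKM in T136A and 50.9 RPKM in WT.

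The factors that specify primordial germ cells were each below their WT level in T136A. Tfap2c, an AP-2 transcription factor, was at 26.5 RPKM in T136A and at 57.7 RPKM in WT, 2.18-fold lower (2.06 to 2.30). Its log2 ratio of -1.09 was -0.94 after upper quartile scaling and -0.99 with 5 RPKM added, both inside the 2-fold line. Prdm14, which also supports naive pluripotency, was at 25.0 RPKM in T136A and at 46.1 RPKM in WT, 1.85-fold lower (1.72 to 1.98). It did not reach the 2-fold line, at a log2 ratio of -0.86. Prdm1, a repressor of somatic genes known as BLIMP1, was at 1.10 RPKM in T136A and at 3.97 RPKM in WT, 3.61-fold lower (2.92 to 4.49), from 113 reads in T136A and 388 reads in WT. With 5 RPKM added its log2 ratio of -1.24 became -0.56, since both levels are low. Summed over the 3 genes, levels were 52.6 RPKM in T136A and 108 RPKM in WT.

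Dmrt1 had the lowest ratio of the 10. This DM-domain transcription factor keeps mouse spermatogonia from entering meiosis and restrains Stra8 there. It was at 11.6 RPKM in T136A and at 50.9 RPKM in WT, 4.40-fold lower (4.01 to 4.84), from 552 reads in T136A and 2313 reads in WT. Its log2 ratio of -2.05 ranked 27 from the bottom among 12320 genes. Dmrt1 and Stra8 thus stood on opposite sides, with Stra8 above Dmrt1 in T136A and Dmrt1 above Stra8 in WT.

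Dppa3, also called STELLA, marks germ cells and, in the mouse zygote, protects the maternal genome from loss of DNA methylation. It was at 4.75 RPKM in T136A and at 5.57 RPKM in WT. The interval of its fold, 0.62 to 1.17, included 1, from 78 reads in T136A and 87 reads in WT. Of the 10 genes, Dppa3 and Nanos3 were the 2 whose counting interval included a fold of 1, and for the other 8 it did not. The share over all genes was not computed, and nothing is read from that count. With many reads the interval excludes 1 for small differences too, as for the stem cell marker Klf4 (0.89 to 0.96).

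**Figure D2:**
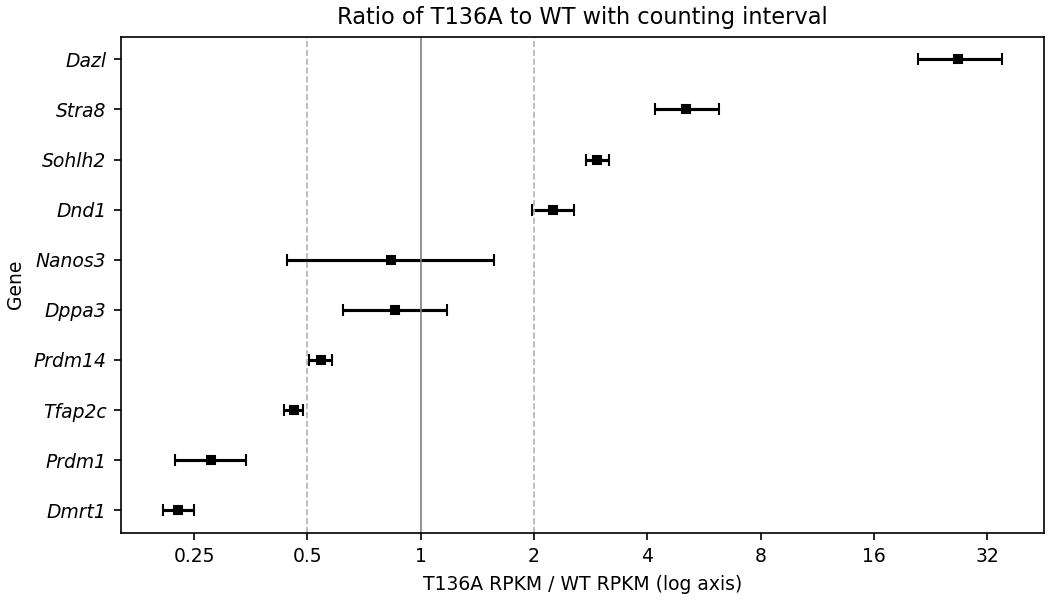
T136A RPKM divided by WT RPKM for each germ cell regulator (squares), on a log axis, with 95% exact conditional binomial counting intervals as bars. The solid line marks equal levels and the dashed lines a fold of 2 either way. Intervals of Nanos3 and Dppa3 cross the solid line.

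The order of the regulators by level therefore differed between the libraries. In T136A, Sohlh2 was first at 71.8 RPKM, followed by Dazl, Tfap2c, Prdm14, Stra8, Dnd1, Dmrt1, Dppa3, Nanos3 and Prdm1. The Poisson intervals of neighbours in that order overlapped for Tfap2c and Prdm14, for Stra8 and Dnd1, and for Nanos3 and Prdm1. In WT, Tfap2c was first at 57.7 RPKM, followed by Dmrt1, Prdm14, Sohlh2, Dnd1, Dppa3, Prdm1, Stra8, Nanos3 and Dazl. Overlapping neighbours there were Prdm1 with Stra8 and Nanos3 with Dazl. The summed level of all 10 was 214 RPKM in T136A and 204 RPKM in WT. In bulk RNA, fewer cells that transcribe a gene and less RNA per cell cannot be told apart.

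**Figure D3:**
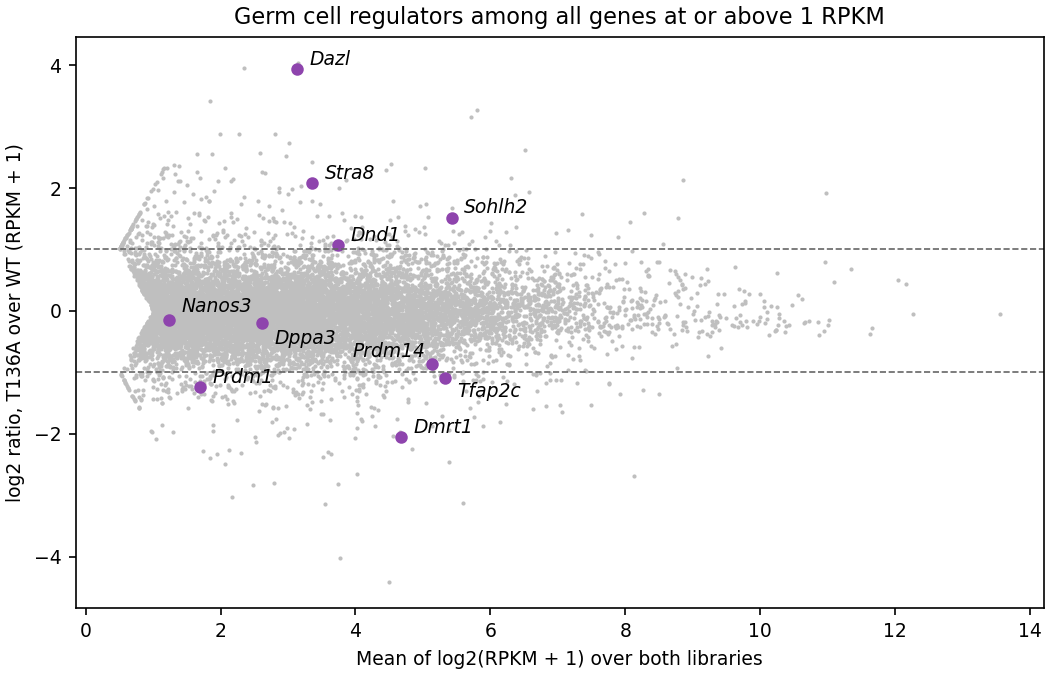
Log2 ratio of T136A over WT, with 1 RPKM added, against the mean log2 level of both libraries, for 12320 genes at or above 1 RPKM (grey) and the 10 germ cell regulators (purple). Dashed lines mark a 2-fold difference. Dazl lies at 3.94 and Dmrt1 at -2.05.

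Most chromosomal neighbours differed less than the regulator beside them, apart from those of Dppa3 and most of those of Nanos3. The regulators were chosen with their values known, and most were past 2-fold. Most other genes would therefore differ less too, and nothing is read from this comparison. Around each gene the 2 nearest protein-coding genes on each side were taken, 40 genes in all, of which 26 reached 1 RPKM in at least 1 library. None of these 26 was at least 2-fold higher in T136A, and 2 were at least 2-fold lower. Of all genes, 3.13% were higher and 3.10% lower by this measure, so nothing is read from these small counts. Next to Dazl on chromosome 17, the raft protein gene Rftn1 was at 2.74 RPKM in T136A and at 2.38 RPKM in WT. On the other side of Dazl, Plcl2 was at 1.30 RPKM in T136A and at 2.40 RPKM in WT. Dmrt3, a relative of Dmrt1 whose span begins 5.97 kb beyond the end of Dmrt1 on chromosome 19, was at 1.02 RPKM in T136A and at 1.29 RPKM in WT. Wdr91, 9.29 kb from Stra8 on chromosome 6, was at 8.95 RPKM in T136A and at 8.77 RPKM in WT. The gene next to Sohlh2, Ccdc169, was under 1 RPKM in both, at 0.326 RPKM in T136A and 0.0343 RPKM in WT. Around Dnd1, both Wdr55 and the histidyl-tRNA synthetase gene Hars had ratios above 0, with Hars at 63.3 RPKM in T136A and 41.5 RPKM in WT.

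Dppa3 lies in a cluster of genes transcribed in pluripotent cells. Gdf3, a growth factor of the TGF-beta family, was at 37.8 RPKM in T136A and at 84.9 RPKM in WT, a log2 ratio of -1.15. Apobec1 had a log2 ratio of -0.99, Nanog one of -0.38 and Slc2a3 one of -0.20, beside -0.19 for Dppa3, whose counting interval of the fold covers the plain folds of Nanog and Slc2a3. The other neighbour at least 2-fold lower was 4930432K21Rik, next to Nanos3, at 1.49 RPKM in T136A and 4.82 RPKM in WT.

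**Figure D4:**
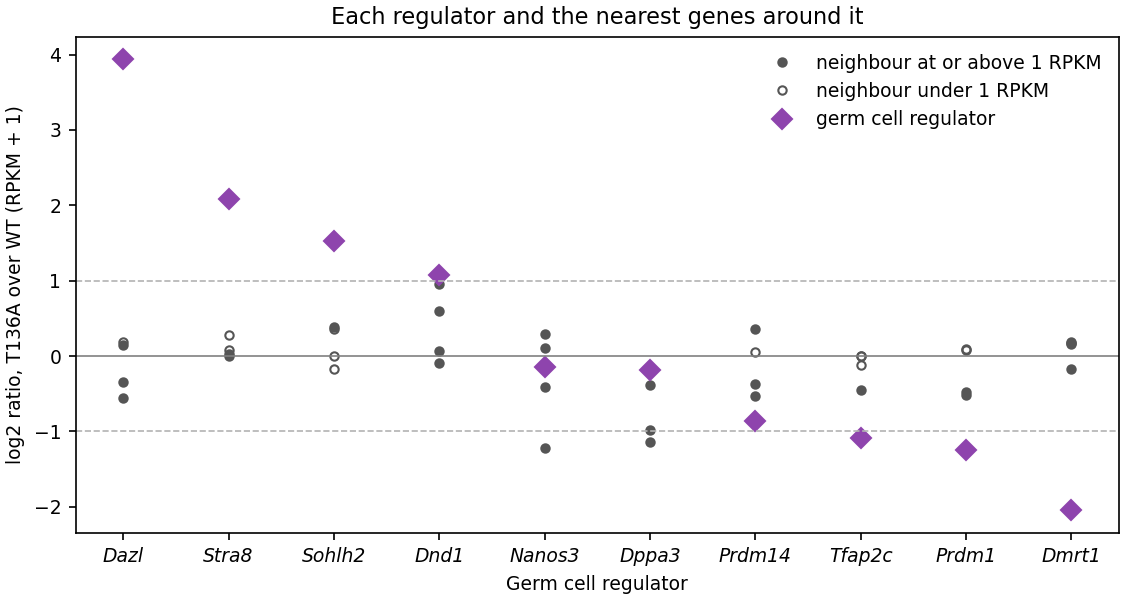
Log2 ratio of T136A over WT, with 1 RPKM added, of each germ cell regulator (purple diamonds) and of the 2 nearest protein-coding genes on each side (circles, open where both libraries are under 1 RPKM). Dashed lines mark a 2-fold difference. No neighbour of Dazl, Stra8, Sohlh2 or Dmrt1 at or above 1 RPKM reached those lines.

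Relatives of the regulators mostly had small differences. Of 23 genes from the same families (Boll, Nanos, Dmrt, Sohlh, Prdm and Tfap2 genes), 11 reached 1 RPKM, 0 were at least 2-fold higher and 1 was at least 2-fold lower. Over all genes, 3.13% were higher and 3.10% lower by this measure. Counts near those shares, here and in the lists below, are not read as a result. Their median log2 ratio was -0.13, beside -0.03 for all genes. The lower one was Dmrtb1, which guides mouse spermatogonia from mitosis into meiosis. Dmrtb1 was at 2.58 RPKM in T136A and at 13.5 RPKM in WT, 5.24-fold lower (4.22 to 6.57). Like Dmrt1 it is a DM-domain gene. The other DM-domain relatives at or above 1 RPKM, Dmrt3 (-0.18) and Dmrtc2 (-0.40), were within 2-fold on the log2 scale. Boll, the closest relative of Dazl, was at 1.08 RPKM in T136A and at 1.66 RPKM in WT. Among the relatives at or above 1 RPKM, Prdm2 had the highest log2 ratio, 0.34. Sohlh1, the partner of Sohlh2 in spermatogonia, was under 1 RPKM in both libraries, at 0.0422 RPKM in T136A and 0.576 RPKM in WT. These values rest on 1 read in T136A and 13 reads in WT. Prdm9, a meiotic histone methyltransferase also under 1 RPKM, was at 0.391 RPKM in T136A and 0.0796 RPKM in WT, from 31 and 6 reads. Sohlh1 and Prdm9 were named after their values were seen.

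Partners and effectors of the regulators included Pumilio proteins, poly(A)-binding proteins, the CCR4-NOT deadenylase that Nanos and Dnd1 proteins recruit, and the cofactors Cbfa2t2, Prmt5 and Uhrf1. Of 21 such genes, 20 reached 1 RPKM, and all 20 were within 2-fold, with a median log2 ratio of -0.17. Most genes of any kind were within 2-fold, since 3.13% of all genes were higher and 3.10% lower. Cbfa2t2, a corepressor that binds Prdm14, had the lowest ratio, at 10.6 RPKM in T136A and 19.5 RPKM in WT. Prdm14 itself had nearly the same log2 ratio, -0.86 beside -0.83. At the upper end were the deadenylase subunits Cnot6, with a log2 ratio of 0.51, and Cnot7, with 0.48.

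Other genes of early germ cells had no common direction. Of 20 genes of primordial germ cell formation and migration, 14 reached 1 RPKM, 1 was at least 2-fold higher and 2 were at least 2-fold lower, with a median log2 ratio of -0.24. The shares over all genes were 3.13% higher and 3.10% lower. Ifitm3, known as fragilis, was at 88.8 RPKM in T136A and at 195 RPKM in WT, 2.19-fold lower (2.04 to 2.36). Alkaline phosphatase, Alpl, the classical stain of primordial germ cells and of stem cells, was at 32.8 RPKM in T136A and at 67.0 RPKM in WT. Cxcr4, a receptor that guides their migration, was at 1.17 RPKM in T136A and at 2.72 RPKM in WT. The higher gene was the inducing signal Bmp4, at 8.87 RPKM in T136A and 3.80 RPKM in WT. Bmp4 lies on chromosome 14, where the median log2 ratio over 453 genes was 0.32, against -0.10 to 0.02 for the other 19 chromosomes with at least 100 genes. Its part in the Bmp4 value was not tested.

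Among genes of spermatogonia and oocytes, 9 of 20 reached 1 RPKM. Of these, 0 were at least 2-fold higher and 1 was at least 2-fold lower, with a median log2 ratio of 0.08. Again, 3.13% of all genes were higher and 3.10% lower. The lower one was Neurog3, a factor of differentiating spermatogonia, at 0.130 RPKM in T136A and 1.40 RPKM in WT, from 4 reads in T136A and 41 reads in WT. Rarg, the retinoic acid receptor of spermatogonia, was at 33.7 RPKM in T136A and at 17.8 RPKM in WT, a log2 ratio of 0.88. Kdm1b, a demethylase needed in oocytes, had a log2 ratio of 0.72, and Zp3 had one of -0.75. Zp3 and Gdf9 of this list are also counted among the markers of later germ cells below.

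Most genes of meiotic entry, many of them downstream of Stra8 in germ cells, were within 2-fold. Of 26 such genes, 16 reached 1 RPKM, 1 was at least 2-fold higher, 1 was at least 2-fold lower and 14 were within 2-fold, beside 3.13% and 3.10% of all genes past the line. Their median log2 ratio was -0.21, with 7 above 0 and 9 below. Rec8, a meiotic cohesin that lies on chromosome 14 like Bmp4, was at 20.9 RPKM in T136A and at 8.83 RPKM in WT. Syce1, of the synaptonemal complex, was at 45.6 RPKM in T136A and at 23.4 RPKM in WT, a log2 ratio of 0.94, inside the 2-fold line. In the other direction, Sycp3, the axial element protein whose translation Dazl promotes in mouse germ cells, was at 6.54 RPKM in T136A and at 14.7 RPKM in WT, 2.25-fold lower (1.85 to 2.75). Meioc, which sustains meiotic prophase, had a log2 ratio of -0.64, also inside it.

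**Figure D5:**
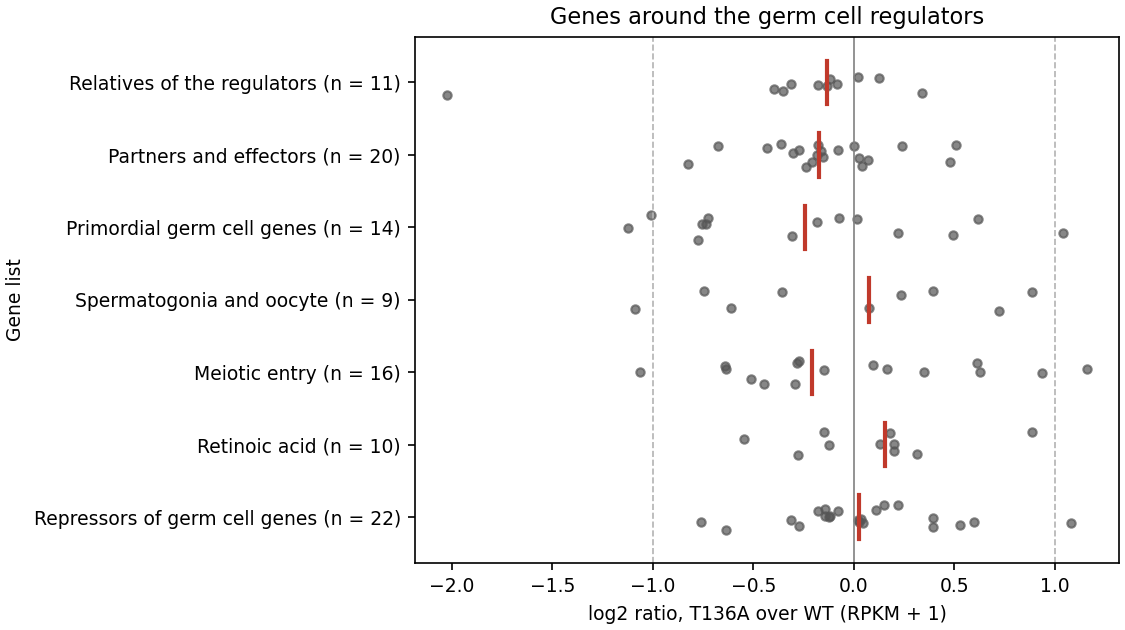
Log2 ratios of T136A over WT, with 1 RPKM added, of genes at or above 1 RPKM in 7 lists around the germ cell regulators (points, spread vertically for visibility), with the list median as a red bar. Dashed lines mark a 2-fold difference. Medians run from -0.24 for primordial germ cell genes to 0.15 for retinoic acid genes.

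Most repressors of germ cell genes in stem cells were within 2-fold, as were most genes of any kind. All 22 reached 1 RPKM, 1 was at least 2-fold higher, 0 were lower and 21 were within 2-fold, and the median log2 ratio was 0.02. Over all genes the shares were 3.13% higher and 3.10% lower. Dnmt3b, a de novo DNA methyltransferase, was the higher one, at 8.45 RPKM in T136A and 3.48 RPKM in WT, 2.43-fold (2.13 to 2.78). E2f6, which brings the variant Polycomb complex to germ cell promoters, was at 5.79 RPKM in T136A and at 10.5 RPKM in WT, a log2 ratio of -0.76. Its partner Rybp had a log2 ratio of -0.63, while Mga was at -0.12 and Pcgf6 at 0.22. The H3 lysine methyltransferases Setdb1 (0.60), Ehmt1 (0.40) and Ehmt2 (0.39) and the de novo DNA methyltransferase Dnmt3a (0.53) were above 0. The maintenance methyltransferase Dnmt1 was at 0.02. Of the 22 genes, 12 had a log2 ratio above 0 and 10 below.

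By the log2 ratio over the 2 libraries with 1 RPKM added, the 5 genes most like Dazl were Xlr3c, Gm9, 1700018B24Rik, Tuba3a and Rhox5. On that scale Xlr3c was at 3.95, with 18.9 RPKM in T136A and 0.288 RPKM in WT. Gm9 was at 35.0 RPKM in T136A and 1.19 RPKM in WT. As plain RPKM ratios, Gm9 (29.4-fold) was nearer to Dazl (26.8-fold) than Xlr3c (65.5-fold), whose WT level was under 1 RPKM. Tuba3a, a testis tubulin, was at 172 RPKM in T136A and at 17.0 RPKM in WT. Xlr3c, Gm9 and Rhox5 lie on the X chromosome, unlike any of the 10 regulators. Xlr3c and Tuba3a have near-identical copies, so their values are uncertain.

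Markers of the labelled cell type were present in both libraries. All 12 stem cell markers reached 1 RPKM and summed to 4347 RPKM in T136A and 4499 RPKM in WT. Dppa5a alone gave 1969 RPKM of that sum in T136A and 2182 RPKM in WT. The median log2 ratio was -0.18, with 3 above 0 and 9 below, and Pou5f1 was at 223 RPKM in T136A and 271 RPKM in WT. Utf1, at 284 RPKM in T136A and 94.2 RPKM in WT, was the only 1 of them at least 2-fold apart. Over all genes, 3.13% were higher and 3.10% lower by this measure. Inside the 2-fold line, Klf2 had a log2 ratio of -0.90, Tdgf1 one of 0.70 and Zfp42 one of 0.66. Markers of later germ cells were nearly silent. Of 12 found, 2 reached 1 RPKM, 5 were at 0 in T136A and 4 at 0 in WT, and they summed to 5.17 RPKM in T136A and 4.22 RPKM in WT, with the sperm proteins Prm2 and Odf1 at 0 in both. The highest of them were Ldhc in T136A, at 2.51 RPKM beside 0.723 RPKM in WT, and Zp3 in WT, at 3.02 RPKM beside 1.40 RPKM in T136A. On the log2 scale Ldhc was at least 2-fold higher in T136A (1.03), and Zp3 was within 2-fold (-0.75). Piwil1, under 1 RPKM in both libraries, was at 0.711 RPKM in T136A and 0.105 RPKM in WT. Gonadal somatic cell markers summed to 3.02 RPKM in T136A and 2.55 RPKM in WT over 8 genes. Fibroblast feeder markers summed to 55.2 RPKM in T136A and 30.3 RPKM in WT over 9 genes. That sum rested on Vim, S100a6, Thy1 and Ccn2, of which Ccn2 was lower in T136A, at 1.27 RPKM beside 3.03 RPKM in WT. The collagens Col1a1 and Col1a2 and Postn, Acta2 and Tagln were under 1 RPKM in both libraries, the last 3 at 0 in WT. The part of feeder cells in the results was not tested. Ahcy, the gene altered by design, was at 56.6 RPKM in T136A and at 52.9 RPKM in WT, and gene-level values cannot show the changed codon.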

How the data were processed

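Libraries were made with an Illumina TruSeq RNA kit from Trizol-extracted RNA, per the labels. CASAVA 1.8 and mm9 stand in the submitters' processing notes without a role, and the aligner and counting method are not stated there. The deposited files hold 1 value per Ensembl gene and library, with no unit. The values were read as RPKM made by the authors, since value times GENCODE M21 (GRCm38) exon length times 1 constant per library was whole, within 0.01, for 90.0% of positive values in T136A and 89.9% in WT. The constants are the implied totals. Of the 10 genes, 9 gave whole reads at that length. Dazl did so at 2942 bases, the shortest length that fitted both libraries, not at the 3820 bases of GENCODE. Symbols matched 25696 of 25749 identifiers.

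The log2 ratio is that of RPKM plus 1, T136A over WT, and printed folds are plain RPKM ratios. Counts took genes with 1 RPKM in at least 1 library. With 1 library a genotype no test was run. Genes, lists and rules were chosen with earlier results of these data known. The text names the 10 genes, up to 3 genes at each end of a list, chromosomal neighbours, the 5 genes nearest Dazl by log2 ratio, and Ahcy. Mga, Pcgf6, Dnmt1, Ehmt1, Ehmt2 and the cell type markers were named after their values were seen. List genes not found in the files are not analysed here. The steps were tested on simulated data, with Python 3.11.15, pandas 2.3.3 and scipy 1.17.1. Alternatives were another added constant, another minimum level and 4 scalings.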

Additional observations from a re-analysis of the deposited data

How the results depend on the processing

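No regulator changed the sign of its log2 ratio under the 6 alternatives run on single genes. A constant added to both libraries cannot change a sign, so only the 4 scalings among them bear on it. Counts were run under 9 alternatives. The count of germ cell regulators at least 2-fold higher stayed at 4, except for 3 with 5 RPKM added, when Dnd1 (0.83) fell inside the line. The count at least 2-fold lower was 3, and was 2 with a minimum of 5 RPKM, 2 after upper quartile scaling and 1 with 5 RPKM added, which left Dmrt1. Dazl had log2 ratios from 2.62 to 4.64 and Dmrt1 from -2.13 to -1.76. Over all genes, 723 were higher and 727 lower with 0.1 RPKM added, against 386 and 382 with 1, and 101 and 114 with 5. With a minimum of 5 RPKM 209 were higher and 264 lower. Upper quartile scaling moved the median of all genes by 0.13, to 0.10 in place of -0.03, and gave 588 higher and 276 lower, so that 68.1% of calls were higher, against 50.3% before scaling. The gene list medians kept their sign under 4 alternatives: 0.1 or 5 RPKM added, no minimum, and a minimum of 5 RPKM. The lists of gonadal somatic markers and of later germ cell markers gave no value with a minimum of 5 RPKM. The 4 scalings were not run on the lists, so the signs of these medians under them are not known. Leaving out a library was not possible with 1 a genotype. No paired analysis was possible because each genotype had 1 library. Depth limits Nanos3 (21 reads in T136A and 24 in WT) and Dppa3 most.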

Other observations

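Genes of retinoic acid supply and sensing, the signal that induces Stra8 in germ cells, mostly had low levels or small differences. Of 18 such genes, 10 reached 1 RPKM and all 10 were within 2-fold on the log2 scale. That is near the share over all genes, of which 3.13% were at least 2-fold higher and 3.10% lower. Among these, 6 had a log2 ratio above 0 and 4 below, and the median was 0.15, beside -0.03 for all genes. The receptors Rarg (0.88) and Rara (0.31) had the highest log2 ratios. The synthesis enzyme Aldh1a2 was at 1.27 RPKM in T136A and at 1.01 RPKM in WT. The retinoic acid breakdown enzyme Cyp26a1 was at 0.123 RPKM in T136A and at 0.0644 RPKM in WT, so it was near the floor in both libraries. Stra6, a retinol receptor, was likewise at 0.0653 RPKM in T136A and 0.0490 RPKM in WT. Aldh1a2, Cyp26a1 and Stra6 were named after their values were seen.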
